A study of Macaca mulatta with 16 samples.

Results

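Levels of 49 genes of mitosis and the kinetochore were described in the fetal lung of the rhesus macaque (Macaca mulatta), gene by gene and as a mean over the genes. The genes were taken by name from a list of 50 symbols. The list was drawn up with earlier results of these data known, so the shares of called genes below describe it and are not independent evidence of its direction. UBE2C, an enzyme that works with the anaphase-promoting complex, matched no row of the count table used here, and the other 49 all passed the filter on low counts, among 19199 genes tested of 22515 in the table. Bulk RNA of 16 fetuses, 1 library each, was sequenced in 5 groups. The 4 preterm controls had no intervention and were delivered at 131 to 135 days of gestation, and the 2 term controls had no intervention and were delivered at 156 and 157 days. Intraamniotic lipopolysaccharide (LPS), a bacterial cell wall product that inflames the amniotic cavity and the fetal lung, was given at 1 mg in the other 3 groups. Of these, 4 fetuses were exposed at 129 or 130 days and delivered 16 hours later, and 3 were exposed at 126 to 129 days and delivered 5 days later, at 131 to 134 days. A further 3 received the same LPS at 126 or 127 days together with 0.125 mg/kg of betamethasone-acetate (Beta-Ac), a long-acting corticosteroid, injected into the muscle of the dam, and were delivered 5 days later, at 131 or 132 days. Each library is whole lung tissue with all its cell types, and no further treatment or genotype is given in the labels. No group received Beta-Ac alone among the samples used here, so the steroid is seen only on top of LPS.

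A cell that divides condenses its replicated chromosomes, attaches them to a spindle of microtubules and pulls them apart. The kinase CDK1 with the B-type cyclins starts mitosis. The kinetochore is the protein plate on each centromere that holds the microtubules, and the spindle checkpoint delays the separation of the chromosomes until every kinetochore is attached. Most of these genes are transcribed in the late part of the cell cycle, under the factors FOXM1 and MYBL2, so their RNA is low in tissue whose cells rest. The lung of a preterm fetus is still growing.

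The libraries held 20169363 to 48052891 counts, and those at 16 hours of LPS were the deepest, with at least 30596371. Levels are given as CPM, the counts of a gene per 1000000 counts of its library, after scaling by the trimmed mean of M values. A gene is called when the Benjamini-Hochberg adjusted p of limma over all genes tested is below 0.05 and the fold change is at least 2. "Fell" and "rose" are used only of called genes. Among the 12 animals outside the 16-hour group, preterm control 209 and term control 200 lay apart from the other 10 on the second principal component of all genes, at 53.5 and 54.1 against -36.5 to 30.7. All 3 lung and epithelial markers and all 9 alveolar type 2 markers had counts in every group. Counts above 0 at this depth are no test of the tissue label.

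The mean of the 49 genes was highest in the preterm controls and lowest at term and 5 days after LPS. Per animal, the mean log2 CPM was 3.01, 2.92, 3.30 and 2.79 in the preterm controls, and 2.76, 2.57, 2.58 and 2.94 at 16 hours of LPS. It was 1.91, 1.84 and 1.72 at 5 days of LPS, 2.14, 2.02 and 2.06 with LPS + Beta-Ac, and 1.55 and 1.86 at term. Every animal of the last 3 groups lay below every preterm control and every animal at 16 hours, while the ranges of the preterm controls and the 16-hour animals overlapped. The 3 LPS + Beta-Ac animals lay above the 3 animals with LPS alone and the 2 term controls. Against the preterm mean of 3.01 ± 0.22 (SD, n = 4), the group means were lower by 0.30 at 16 hours (2.71 ± 0.17, n = 4), by 1.19 at 5 days of LPS (1.82 ± 0.10, n = 3), by 0.93 with LPS + Beta-Ac (2.07 ± 0.06, n = 3) and by 1.30 at term (1.70 ± 0.22, n = 2). In linear terms, this is 81.5%, 44.0%, 52.3% and 40.5% of the preterm level. No test was made on this mean. In bulk lung, fewer dividing cells and less of this RNA in each dividing cell cannot be told apart.

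**Figure D1:**
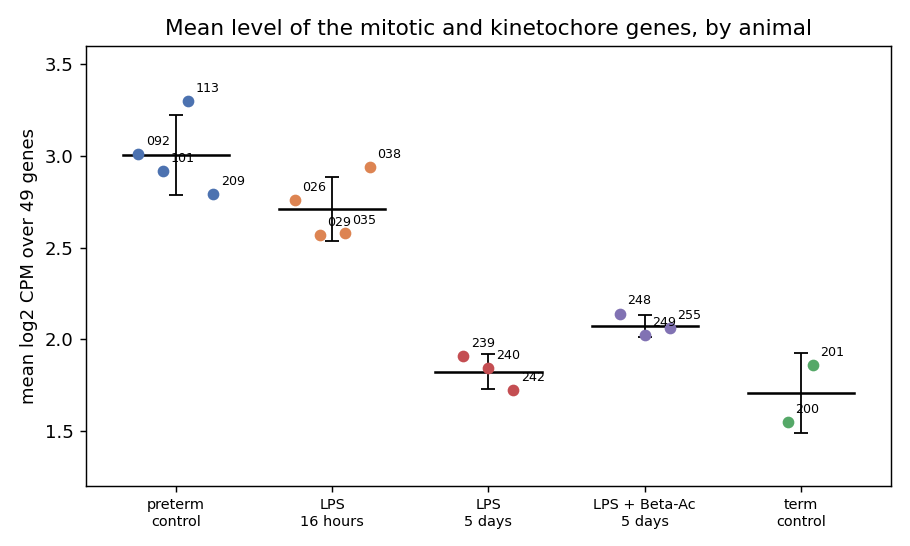
Mean log2 CPM over the 49 genes (vertical axis) in each of 16 animals, by group, with the mean (line), the SD (bar) and the number of the animal. The preterm controls lie between 2.79 and 3.30 and the 5-day LPS animals between 1.72 and 1.91, without overlap.

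The spread within the preterm controls was shared by most genes. Animal 113 had the highest level of its group in 41 of 49 genes and animal 209 the lowest in 27, although both were delivered at 135 days. At 16 hours, animal 038 was the highest in 34 genes. Of the 2 term controls, animal 201 was the higher in 35 genes and animal 200 in 14.

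Gene by gene, the decrease at 5 days and at term ran through most of the set. At 5 days of LPS, all 49 genes had a lower mean than in the preterm controls, and 34 of 49 fell (69.4%), against 2.23% of all genes tested that were called lower and 2.60% called higher. Their median log2 fold change was -1.19, with a range of -2.05 to -0.03, beside a median of 0.00 over all genes. In 44 of 49 genes every LPS animal lay below every preterm control, which held for 15.6% of all genes. With LPS + Beta-Ac, 25 of 49 genes fell (51.0%), against 2.44% called lower and 4.05% called higher among all genes, with a median of -1.07 (range -2.40 to 0.68), and 39 did not overlap the preterm controls from below, against 16.1% of all genes. At term, 29 genes fell (59.2%), against 0.953% called lower and 1.11% called higher among all genes, with a median of -1.40 (range -2.15 to -0.16), and 44 did not overlap from below, against 15.2%. No member rose in these 3 comparisons. They share the 4 preterm controls, so their lists of genes are not independent of each other. The 2 term controls carry the term count unequally: 13 genes were called without animal 200 and 29 without animal 201, where the lone term control is assumed to vary like the other groups. Without animal 200 the term calls of CDK1, BIRC5, PBK and SPC25 were lost, with adjusted p = 0.0735, 0.0530, 0.0635 and 0.0611 by limma, as were those of MAD2L1, NDC80 and KIF11 (0.141, 0.107 and 0.146). With only preterm and term animals in the model, 16 genes were called at term. Without both animals that lay apart, preterm control 209 and term control 200, 36, 28 and 21 genes fell at 5 days of LPS, with LPS + Beta-Ac and at term.

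**Figure D2:**
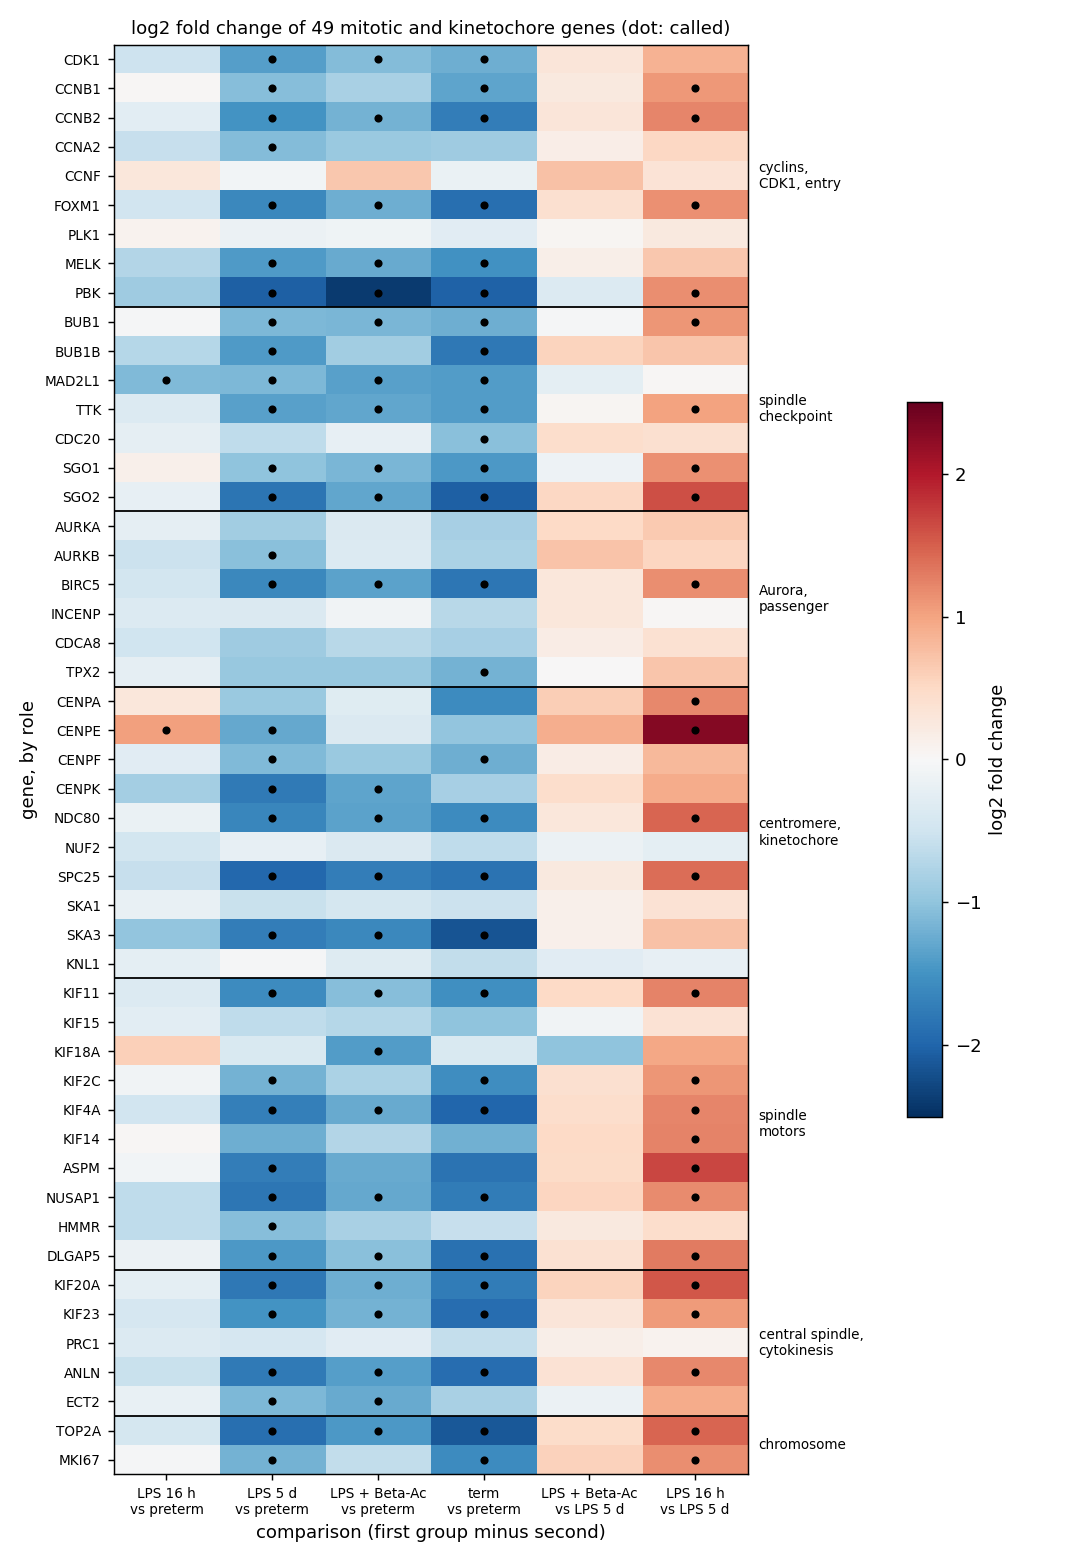
Log2 fold change (colour) of the 49 genes, ordered by role, in 6 comparisons, with a dot where the gene is called. Most genes are blue in the 3 middle comparisons with the preterm controls (34, 25 and 29 called lower), and the comparison of LPS + Beta-Ac with LPS alone has no dot.

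Of the 49 genes, 22 fell in all 3 comparisons, and 12 were called in none of them. The 22 were CDK1, CCNB2, FOXM1, MELK, PBK, BUB1, MAD2L1, TTK, SGO1, SGO2, BIRC5, NDC80, SPC25, SKA3, KIF11, KIF4A, NUSAP1, DLGAP5, KIF20A, KIF23, ANLN and TOP2A, and they come from every role. Those of the spindle checkpoint, Aurora and kinetochore roles all lost the term call without term control 200. CDK1, MELK, PBK, KIF11 and KIF4A lost it too, so the spread over every role rests on that animal. Another 5 fell after LPS and at term but were not called with added Beta-Ac (CCNB1, BUB1B, CENPF, KIF2C and MKI67), 5 fell only at 5 days of LPS without Beta-Ac (CCNA2, AURKB, CENPE, ASPM and HMMR), 2 fell after both exposures (CENPK and ECT2), 2 at term only (CDC20 and TPX2) and 1 with LPS + Beta-Ac only (KIF18A). A call in 1 comparison and not in another is no test of a difference between them. At 5 days of LPS, the call of HMMR was lost without preterm control 092 or 113 or LPS animal 242 (-0.96, -0.98 and -0.91). That of ASPM was lost without LPS animal 240 (adjusted p = 0.0632 by limma). Those of AURKB and CENPE also rested on single animals, as given below. Without LPS + Beta-Ac animal 249, the calls of CDK1, SGO1, SGO2, KIF4A and DLGAP5 with LPS + Beta-Ac were lost. The 12 without a call were CCNF, PLK1, AURKA, INCENP, CDCA8, CENPA, NUF2, SKA1, KNL1, KIF15, KIF14 and PRC1, and all 12 had a lower mean at 5 days of LPS and at term.

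Among the cyclins, CDK1 and the regulators of entry into mitosis, 7 of 9 genes fell at 5 days of LPS (median log2 fold change -1.38), 5 with LPS + Beta-Ac (-1.08) and 6 at term (-1.31). CDK1, the kinase that drives cells into mitosis, measured 18.3, 14.4, 19.2 and 13.7 CPM in the preterm controls, 12, 12.3, 9.16 and 12.2 in the 16-hour LPS animals, 7.55, 4.91 and 6.41 in the 5-day LPS animals, 8.43, 6.88 and 7.67 with LPS + Beta-Ac, and 6.54 and 7.34 at term. The groups at 5 days and at term did not overlap the preterm controls, and the 16-hour animals lay between. Its log2 fold change was -1.38 ± 0.180 (SE), adjusted p = 3.68e-04, at 5 days of LPS and -1.22 ± 0.204 (SE), adjusted p = 0.00635, at term. Its call with LPS + Beta-Ac was lost without animal 249 of that group, at -0.98. CCNB1, the B-type cyclin that activates CDK1, measured 13.2, 9.71, 13.9 and 9.35 CPM in the preterm controls, 11.1, 11.8, 10.5 and 13.4 at 16 hours of LPS, 5.84, 5.56 and 4.93 at 5 days of LPS, 7.08, 6.41 and 5.97 with LPS + Beta-Ac, and 5.04 and 4.10 in the term controls. Here the 16-hour animals lay within the range of the preterm controls, and the other exposed and term animals below it. It fell by 1.06 on the log2 scale at 5 days of LPS (adjusted p = 0.00112) and had a log2 fold change of -0.81 ± 0.171 (SE), adjusted p = 0.00436, with LPS + Beta-Ac, short of the minimum fold. The call at 5 days was lost without preterm control 092 or 113 or LPS animal 242, at log2 fold changes of -0.98, -0.96 and -0.99.

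FOXM1, the transcription factor that turns on many genes of this set, measured 14.9, 13.9, 17.5 and 12.6 CPM in the preterm controls, 9.38, 9.60, 11.2 and 12 in the 16-hour LPS animals, 5.33, 5.33 and 3.61 in the 5-day LPS animals, 6.55, 5.14 and 7.05 with LPS + Beta-Ac, and 4.01 and 3.81 at term. Its groups at 5 days and at term were below both other groups in every animal, and the 4 animals at 16 hours lay below the preterm controls. The log2 fold change was -1.62 ± 0.181 (SE), adjusted p = 2.35e-04, at 5 days of LPS, -1.23 with LPS + Beta-Ac and -1.88 at term. PBK, a mitotic kinase, had the largest decrease of the role at 5 days. It measured 4.01, 3.97, 6.10 and 4.07 CPM in the preterm controls, 2.52, 2.56, 1.93 and 2.59 at 16 hours of LPS, 0.943, 1.19 and 0.949 at 5 days of LPS, 0.527, 1.09 and 0.848 with LPS + Beta-Ac, and 0.772 and 1.42 in the term controls. PBK was lower at 16 hours than in every preterm control, and lower again in the 8 animals of the other groups. Its log2 fold changes were -2.05 ± 0.269 (SE), adjusted p = 3.68e-04, at 5 days of LPS and -2.40 ± 0.269 (SE), adjusted p = 4.28e-05, with LPS + Beta-Ac.

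Of the 7 genes measured of the spindle checkpoint and the anaphase-promoting complex, 6 fell at 5 days of LPS (median -1.12), 5 with LPS + Beta-Ac (-1.14) and all 7 at term (-1.40). The term calls of BUB1, TTK and SGO1 were lost without term control 200, at log2 fold changes of -1.34, -1.38 and -1.33. Those of SGO2, MAD2L1 and CDC20 also rested on single term controls, as given below. SGO2, which with SGO1 protects the cohesion of sister centromeres, had the largest decrease at 5 days. It measured 3.22, 2.82, 5.68 and 3.16 CPM in the preterm controls, 3.62, 2.45, 2.87 and 3.55 in the 16-hour LPS animals, 1.23, 0.959 and 0.759 in the 5-day LPS animals, 1.62, 1.12 and 1.54 with LPS + Beta-Ac, and 0.404 and 1.58 at term. The preterm controls and 16-hour animals overlapped, and all other animals lay below both. The log2 fold change of SGO2 was -1.82 ± 0.362 (SE), adjusted p = 0.00396, at 5 days of LPS, -1.30 ± 0.362 (SE), adjusted p = 0.0213, with LPS + Beta-Ac and -2.04 ± 0.410 (SE), adjusted p = 0.0145, at term. With LPS + Beta-Ac the call rests on single animals, with an adjusted p = 0.0684 without preterm control 113 and 0.109 without LPS + Beta-Ac animal 249, and at term it was lost without term control 200 (-1.14, adjusted p = 0.20). BUB1B, the checkpoint kinase homologue BUBR1, measured 10.7, 11.3, 14.1 and 9.42 CPM in the preterm controls, 6.96, 6.16, 5.50 and 9.28 at 16 hours of LPS, 4.24, 3.84 and 4.51 at 5 days of LPS, 5.83, 5.79 and 6.97 with LPS + Beta-Ac, and 2.68 and 3.81 in the term controls. The 3 LPS + Beta-Ac animals lay between the 5-day LPS animals and the preterm controls, with no overlap on either side. Its log2 fold change was -1.41 ± 0.20 (SE), adjusted p = 5.42e-04, at 5 days of LPS and -0.86 ± 0.20 (SE), adjusted p = 0.00786, with LPS + Beta-Ac. MAD2L1, the checkpoint protein that holds back CDC20, was the single member already called lower at 16 hours (-1.10 ± 0.216 (SE), adjusted p = 9.13e-04). It measured 24.9, 16.6, 29.2 and 13.9 CPM in the preterm controls, 9.84, 8.67, 8.44 and 10.8 in the 16-hour LPS animals, 8.13, 9.48 and 10.2 in the 5-day LPS animals, 8.47, 6.81 and 8.36 with LPS + Beta-Ac, and 6.18 and 9.44 at term. Every exposed and term animal lay below every preterm control, and the 16-hour and later groups overlapped each other. Without preterm control 113 the calls of MAD2L1 were lost at 16 hours (-0.93) and at 5 days of LPS (-0.95), both short of the minimum fold, and without term control 200 its term call was lost (adjusted p = 0.141). CDC20, the activator of the anaphase-promoting complex, was called lower at term only (-1.04 ± 0.187 (SE), adjusted p = 0.00871) and had log2 fold changes of -0.63 at 5 days of LPS and -0.20 with LPS + Beta-Ac. This term call was lost with scaling by the total count (-0.98) and without term control 201 (-0.80). It was also lost with only preterm and term animals in the limma model (adjusted p = 0.0580).

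The Aurora kinases and their partners had the lowest share of called genes among the roles at 5 days of LPS. BIRC5 and AURKB of 6 fell at 5 days of LPS (median -0.91), 1 fell with LPS + Beta-Ac (-0.53) and 2 at term (-0.83). BIRC5, the passenger protein survivin, measured 9.89, 9.61, 12.9 and 8.84 CPM in the preterm controls, 6.01, 9.15, 6.97 and 7.94 at 16 hours of LPS, 3.23, 4.11 and 2.66 at 5 days of LPS, 4.37, 4.92 and 3.0 with LPS + Beta-Ac, and 2.28 and 3.62 in the term controls. The animals at 5 days and at term lay below all others, with log2 fold changes of -1.62 ± 0.233 (SE), adjusted p = 5.62e-04, at 5 days of LPS, -1.33 with LPS + Beta-Ac and -1.80 at term. Its partner AURKB, the kinase that corrects wrong attachments of the spindle, measured 7.45, 4.62, 6.74 and 6.37 CPM in the preterm controls, 5.05, 4.64, 3.87 and 3.69 in the 16-hour LPS animals, 4.06, 2.76 and 2.28 in the 5-day LPS animals, 2.90, 6.52 and 6.09 with LPS + Beta-Ac, and 4.85 and 2.55 at term. Only the 5-day LPS animals lay wholly below the preterm controls, and LPS + Beta-Ac animals 249 and 255 were within their range. The log2 fold change of AURKB was -1.05 ± 0.303 (SE), adjusted p = 0.0291, at 5 days of LPS, a call that was lost in each of 4 fits without a single animal (preterm controls 092 and 113, LPS animals 240 and 242), with adjusted p = 0.0707 to 0.121. INCENP, the scaffold of the same complex, had log2 fold changes of -0.37 at 5 days of LPS, -0.08 with LPS + Beta-Ac and -0.70 at term.

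Genes of the centromere and kinetochore were mixed. Of 10, 6 fell at 5 days of LPS (median -1.19), 4 with LPS + Beta-Ac (-0.68) and 4 at term (-1.11). SPC25, a subunit of the NDC80 complex that grips microtubules, measured 2.96, 3.61, 3.62 and 2.26 CPM in the preterm controls, 1.95, 2.08, 1.77 and 2.38 at 16 hours of LPS, 1.02, 0.499 and 0.759 at 5 days of LPS, 0.828, 0.760 and 1.08 with LPS + Beta-Ac, and 0.698 and 0.905 in the term controls. Its values at 5 days and at term were below all others, and its log2 fold changes were -1.97 ± 0.256 (SE), adjusted p = 3.68e-04, at 5 days of LPS, -1.72 with LPS + Beta-Ac and -1.85 at term. NDC80 itself fell alongside it, by 1.63, 1.34 and 1.58 in the same order, whereas NUF2, the direct partner of NDC80 in that complex, was not called. NUF2 measured 10.7, 10.4, 11.3 and 7.53 CPM in the preterm controls, 8.46, 7.98, 5.80 and 6.75 in the 16-hour LPS animals, 9.0, 9.94 and 6.83 in the 5-day LPS animals, 8.51, 7.53 and 6.90 with LPS + Beta-Ac, and 5.29 and 7.5 at term, and the exposed groups overlapped the preterm controls while both term controls lay below them, with a log2 fold change of -0.21 ± 0.199 (SE) at 5 days of LPS. KNL1, the platform for the checkpoint kinases, had a log2 fold change of -0.03 ± 0.333 (SE) at 5 days of LPS and -0.62 ± 0.378 (SE) at term. CENPA, the histone variant that marks centromeres, was measured at 0.110 to 1.35 CPM and had log2 fold changes of -0.92 ± 0.391 (SE), adjusted p = 0.136, at 5 days of LPS and -1.58 ± 0.443 (SE), adjusted p = 0.0600, at term.

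The spindle motors and microtubule-binding proteins, 10 genes, fell in 7 cases at 5 days of LPS (median -1.32), in 5 with LPS + Beta-Ac (-1.06) and in 5 at term (-1.55). NUSAP1, which bundles spindle microtubules, measured 10.6, 7.30, 12.1 and 8.47 CPM in the preterm controls, 5.76, 5.04, 5.27 and 8.90 at 16 hours of LPS, 3.16, 2.80 and 2.09 at 5 days of LPS, 4.40, 3.73 and 3.47 with LPS + Beta-Ac, and 2.83 and 2.68 in the term controls. The groups at 5 days and at term lay below the preterm controls and below the 16-hour animals. Its log2 fold change was -1.81 ± 0.230 (SE), adjusted p = 3.17e-04, at 5 days of LPS, -1.28 with LPS + Beta-Ac and -1.75 at term. KIF11, the motor that pushes the spindle poles apart, fell by 1.57, 1.07 and 1.54, and DLGAP5, a spindle assembly protein, by 1.43, 1.04 and 1.87 on the log2 scale in the same order. The calls of KIF11 and DLGAP5 with LPS + Beta-Ac were lost without preterm control 113, at -0.92 and -0.93. That of DLGAP5 was also lost without LPS + Beta-Ac animal 249 (-0.97), as was that of KIF4A (-0.96). ASPM, a protein of the spindle poles, measured 0.515 CPM in term control 200 and 2.94 in term control 201, and its log2 fold change at term was -1.85 ± 0.497 (SE), adjusted p = 0.0504. KIF15, a motor related in function to KIF11, had log2 fold changes of -0.64, -0.71 and -1.0 and was not called.

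In the central spindle and cytokinesis, 4 of 5 genes fell at 5 days of LPS (median -1.49), 4 with LPS + Beta-Ac (-1.23) and 3 at term (-1.74). KIF20A, a motor of the central spindle, measured 17.5, 13.0, 20.1 and 11.3 CPM in the preterm controls, 12.9, 11.5, 12.1 and 14.8 in the 16-hour LPS animals, 5.26, 5.22 and 2.94 in the 5-day LPS animals, 6.70, 6.37 and 6.13 with LPS + Beta-Ac, and 5.22 and 3.81 at term. The animals at 5 days and at term lay far below the others, and the 16-hour animals lay within the range of the preterm controls. Its log2 fold changes were -1.79 ± 0.230 (SE), adjusted p = 3.62e-04, at 5 days of LPS, -1.23 with LPS + Beta-Ac and -1.74 at term. PRC1, which cross-links the microtubules of the central spindle, was the exception, with 49.6, 46.2, 53.8 and 42.6 CPM in the preterm controls, 36.4, 38.1, 34.8 and 41.5 at 16 hours of LPS, 33.9, 36.1 and 37.0 at 5 days of LPS, 39.6, 39.5 and 39.4 with LPS + Beta-Ac, and 30.4 and 33.2 in the term controls. Its groups at 5 days and at term did lie below the preterm controls, but with log2 fold changes of only -0.42 ± 0.102 (SE), adjusted p = 0.0121, at 5 days of LPS and -0.59 ± 0.116 (SE), adjusted p = 0.0132, at term.

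TOP2A, the topoisomerase that untangles chromosomes, and MKI67, which coats them and marks dividing cells, fell at 5 days of LPS and at term. TOP2A measured 36.9, 40.2, 62.7 and 38.6 CPM in the preterm controls, 38.2, 22.4, 30.0 and 41.8 in the 16-hour LPS animals, 11.9, 11.9 and 11.4 in the 5-day LPS animals, 17.2, 14.6 and 16.6 with LPS + Beta-Ac, and 7.10 and 14.1 at term. Its 8 animals at 5 days and at term lay below all 8 others. The log2 fold change of TOP2A was -1.89 ± 0.247 (SE), adjusted p = 3.68e-04, at 5 days of LPS, -1.43 ± 0.247 (SE), adjusted p = 0.00111, with LPS + Beta-Ac and -2.11 ± 0.280 (SE), adjusted p = 0.00240, at term. MKI67 measured 41.7, 28.5, 44.9 and 37.8 CPM in the preterm controls, 37.2, 22.0, 43.6 and 53.4 at 16 hours of LPS, 18.1, 16.8 and 14.9 at 5 days of LPS, 27.7, 22.1 and 24.2 with LPS + Beta-Ac, and 10.3 and 15.3 in the term controls. The 3 LPS + Beta-Ac animals lay above the 5-day LPS and term animals and below the preterm controls, and animal 029 at 16 hours lay just below them at 22.0 CPM. Its log2 fold change was -1.19 ± 0.247 (SE), adjusted p = 0.00510, at 5 days of LPS and -1.58 ± 0.280 (SE), adjusted p = 0.00827, at term, and with LPS + Beta-Ac it was -0.62 ± 0.247 (SE), adjusted p = 0.103, and not called. Without term control 200 the term call of MKI67 was lost (-1.30, adjusted p = 0.111).

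**Figure D3:**
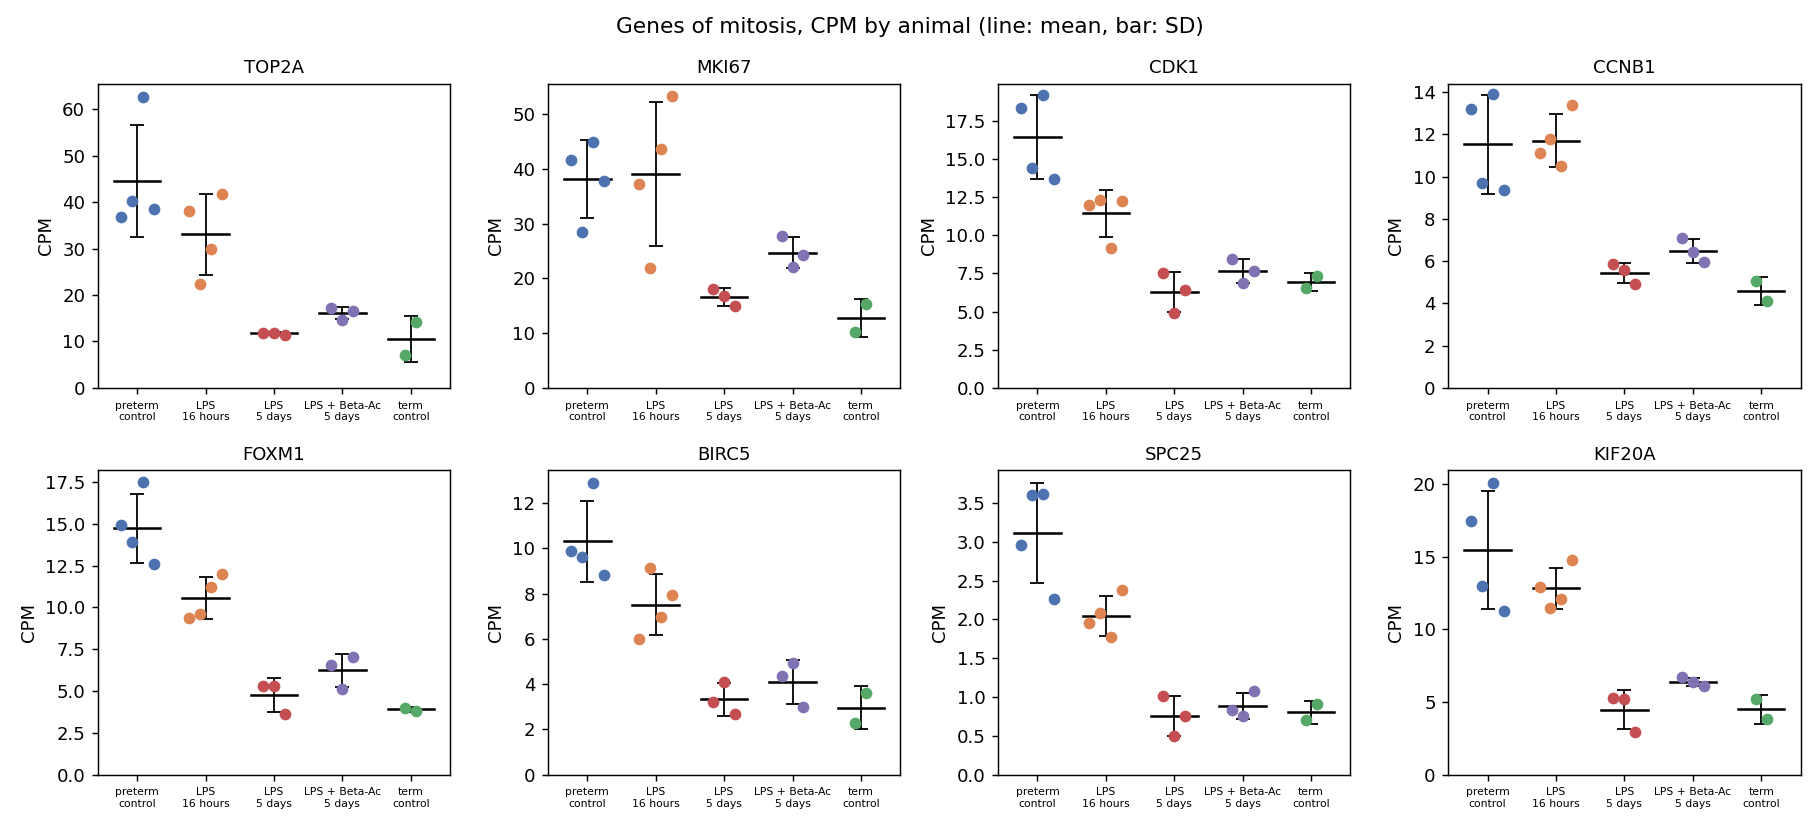
CPM (vertical axes) of 8 genes in each of 16 animals, by group, with means (lines) and SDs (bars). In each of the 8 panels the animals at 5 days of LPS lie below all preterm controls, as for TOP2A with at most 11.9 against at least 36.9 CPM.

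Some members did not follow the rest. PLK1, the polo-like kinase needed throughout mitosis, measured 29.4, 30.0, 30.7 and 25.2 CPM in the preterm controls, 32.4, 26.9, 29.8 and 34 in the 16-hour LPS animals, 27.2, 23.8 and 27.1 in the 5-day LPS animals, 21.6, 28.2 and 31.1 with LPS + Beta-Ac, and 22.5 and 24.7 at term. The 3 exposed groups overlapped the preterm controls and both term controls lay below them. The log2 fold change was -0.14 (95% confidence interval -0.43 to 0.14) at 5 days of LPS, -0.11 (95% confidence interval -0.40 to 0.18) with LPS + Beta-Ac and -0.28 (95% confidence interval -0.61 to 0.04) at term. CCNF, a cyclin of the F-box family that marks mitotic proteins for degradation, was the single member with a higher mean than the preterm controls both at 16 hours and with LPS + Beta-Ac. It measured 19.9, 18.9, 19.2 and 18.3 CPM in the preterm controls, 22.0, 22.4, 23.8 and 25.0 at 16 hours of LPS, 20.1, 16.5 and 18.5 at 5 days of LPS, 26.1, 43.6 and 25.0 with LPS + Beta-Ac, and 18.9 and 15.4 in the term controls. Every 16-hour and every LPS + Beta-Ac animal lay above every preterm control, and animal 249 stood far above the other 2 of its group. Its log2 fold change was 0.68 ± 0.165 (SE), adjusted p = 0.0105, with LPS + Beta-Ac and 0.29 ± 0.153 (SE), adjusted p = 0.157, at 16 hours, short of a call in both. CENPE, the kinetochore motor that moves chromosomes to the middle of the spindle, was the single member called higher at 16 hours (1.03 ± 0.298 (SE), adjusted p = 0.0126). It measured 5.36, 7.44, 9.75 and 6.0 CPM in the preterm controls, 26.8, 8.38, 11.0 and 16.9 in the 16-hour LPS animals, 3.16, 2.84 and 2.56 in the 5-day LPS animals, 4.89, 6.59 and 4.82 with LPS + Beta-Ac, and 2.90 and 4.10 at term. One 16-hour animal, 029, lay within the range of the preterm controls, and animal 026 alone reached 26.8 CPM. The call was lost with limma-voom in place of limma-trend (1.00, adjusted p = 0.0197), with scaling by the total count (0.83) and without 16-hour animal 026 (0.73) or 038 (0.96) or preterm control 092 (0.91) or 209 (0.96), each time because the fold was too small. At 5 days of LPS the same gene fell (-1.27 ± 0.322 (SE), adjusted p = 0.0158), a call lost with limma-voom (adjusted p = 0.0610) and without preterm control 113 or LPS animal 240 or 242 (adjusted p = 0.0511 to 0.0557). KIF18A, a motor that trims the ends of spindle microtubules, was called lower with LPS + Beta-Ac and in no other comparison with the preterm controls (-1.39 ± 0.302 (SE), adjusted p = 0.00526). It measured 1.66, 2.26, 2.13 and 1.75 CPM in the preterm controls, 2.20, 2.03, 4.24 and 3.90 at 16 hours of LPS, 1.31, 1.19 and 1.99 at 5 days of LPS, 0.903, 0.796 and 0.462 with LPS + Beta-Ac, and 1.4 and 1.52 in the term controls. The LPS + Beta-Ac animals lay below all other 13, at 0.462 to 0.903 CPM, and 16-hour animals 035 and 038 lay above all others.

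**Figure D4:**
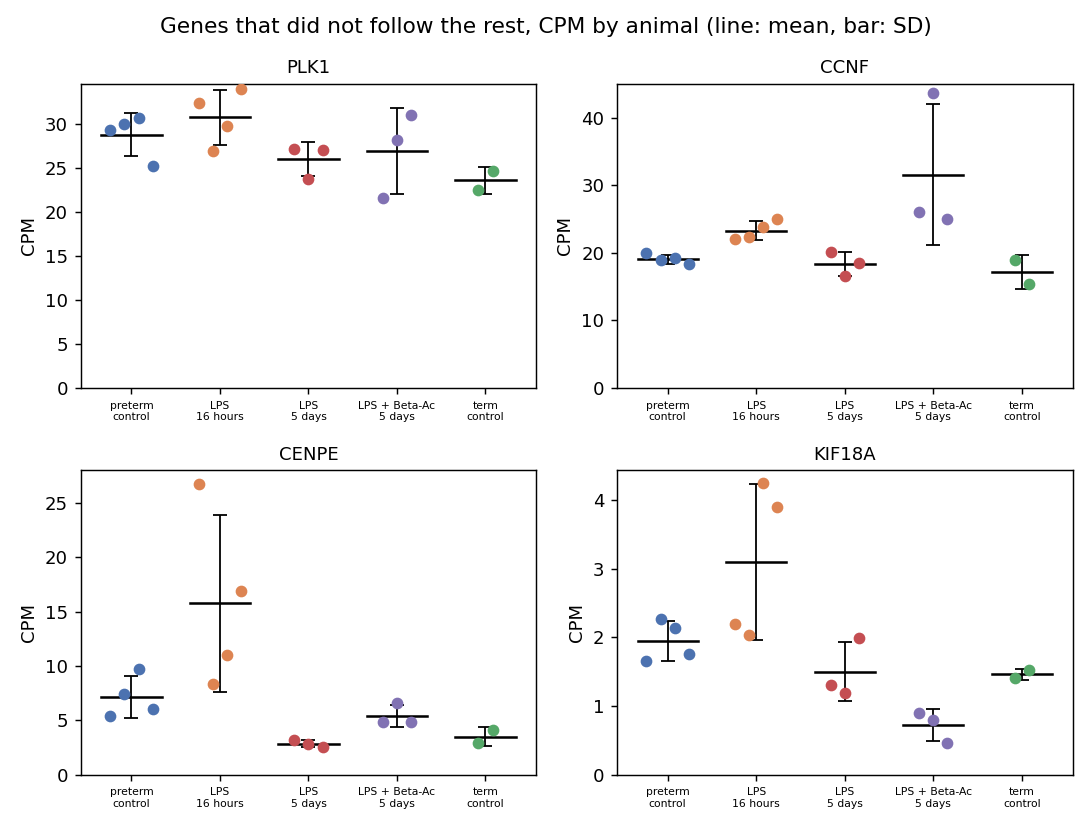
CPM (vertical axes) of PLK1, CCNF, CENPE and KIF18A in each of 16 animals, by group, with means (lines) and SDs (bars). PLK1 stays between 21.6 and 34 CPM in all animals, and the highest values of CCNF (43.6) and CENPE (26.8) each come from a single animal.

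Some members share their place in the genome with other genes. In the RefSeq annotation of another rhesus assembly, 8 of the 12 members called in none of the 3 comparisons overlap another annotated gene, PLK1 with DCTN5 and ERN2 among them, as do 20 of the other 37. These overlaps were listed by gene name, without the strand of either gene and without a check for shared exons. How strand was treated in the counting is also unknown. Whether a member and a gene that overlaps it shared any reads was not tested, nor was the part of such overlaps in these values. Median log2 fold changes of the 12 were -0.48 at 5 days of LPS, -0.34 with LPS + Beta-Ac and -0.67 at term, and those of the other 37 were -1.41, -1.23 and -1.55, values that the split by calls itself sets apart.

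The timing was asked by setting 16 hours of LPS against the preterm controls and against 5 days. At 16 hours, 41 of 49 genes had a lower mean than in the preterm controls, but only MAD2L1 fell and CENPE rose, against 6.07% of all genes called lower and 8.30% called higher. The median log2 fold change was -0.28 (range -1.10 to 1.03), beside -0.09 over all genes. With limma-voom, 2 members were called lower (MAD2L1 and SKA3) and none higher. Scaling by the total count moved the median of all genes to -0.29, and under it the members' median was -0.49 with 4 called lower. Without the minimum fold, 14 members passed, 13 of them lower, against 19.6% of all genes lower. Between the time points, 47 of 49 genes were higher at 16 hours than at 5 days, and 25 of 49 were called higher (51.0%), against 8.02% of all genes called higher and 6.61% called lower. The median was 1.00 (range -0.24 to 2.30), and 39 genes did not overlap, against 21.0% of all genes. Under scaling by the total count, where the median of all genes was -0.22, 13 genes were called, with a median of 0.82. Among those that lost the call there were CCNB1 (0.90), FOXM1 (0.96), MKI67 (0.97), BIRC5 (0.97), PBK (0.99) and NUSAP1 (0.99), all below the minimum fold. CENPE differed most (2.30 ± 0.322 (SE), adjusted p = 5.86e-05), followed by ASPM (1.67), SGO2 (1.61), KIF20A (1.55), NDC80 (1.46) and TOP2A (1.45). MAD2L1 had a log2 fold change of 0.02 (95% confidence interval -0.47 to 0.52). The 16-hour animals were also delivered at 130 or 131 days and the 5-day animals at 131 to 134 days, and the 16-hour libraries were deeper.

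Added Beta-Ac was set against LPS alone at 5 days, with 3 animals in each group. Of 49 genes, 40 had a higher mean with Beta-Ac and the median log2 fold change was 0.29 (range -1.0 to 0.90), beside 0.00 over all genes. No member was called by limma-trend or by limma-voom, where 0.104% of all genes were called higher and 0% lower. At an unadjusted threshold of 0.05, 11 of 49 members passed, against 4.82% of all genes. In 18 members every LPS + Beta-Ac animal lay above every LPS animal, against 6.33% of all genes. MKI67 had a difference of 0.57 (95% confidence interval 0.01 to 1.13) on the log2 scale, BUB1B of 0.55 (95% confidence interval 0.10 to 1.01), KIF20A of 0.56 (95% confidence interval 0.03 to 1.08) and TOP2A of 0.45 (95% confidence interval -0.11 to 1.02). CCNF reached 0.74 (95% confidence interval 0.36 to 1.11) with adjusted p = 0.193, AURKB 0.71 (95% confidence interval 0.02 to 1.4) and CENPE 0.90 (95% confidence interval 0.17 to 1.64). KIF18A went the other way, at -1.0 (95% confidence interval -1.69 to -0.31) with adjusted p = 0.502. All 14 myeloid and all 7 erythroid markers also had higher means with Beta-Ac than with LPS alone (median log2 fold changes of 1.32 and 1.30), and their part in these differences was not tested.

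No member was called between the exposed groups at 5 days and the term controls. LPS alone against term gave 0 called members, by limma-trend and by limma-voom, against 0.0313% of all genes in either direction, with a median of 0.14 (range -0.93 to 0.66). At an unadjusted threshold of 0.05, 1 of 49 members passed, against 11.0% of all genes. LPS + Beta-Ac against term gave 0 called members by both fits, against 0.375% of all genes called higher and 0.193% called lower, with 43 of 49 means higher and a median of 0.46 (range -1.0 to 1.28). At the unadjusted threshold, 16 of 49 passed, against 14.4% of all genes. Without term control 200 that median was 0.20, with 1 member called. With 2 term controls these comparisons are the least precise, as for TOP2A, whose interval ran from -0.40 to 0.85 for LPS alone.

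By group means, term was the lowest of the 5 groups in 31 genes, 5 days of LPS in 15 and LPS + Beta-Ac in 3 (PBK, KIF18A and ECT2). The highest mean was that of the preterm controls in 41 genes, of the 16-hour animals in 7 (CCNB1, PLK1, SGO1, CENPA, CENPE, KIF18A and KIF14) and of LPS + Beta-Ac in 1 (CCNF).

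Other genes of cell division, listed beside the 49, were called in smaller shares at 5 days and at term, and the difference in share was not tested. The 49 and the other lists were chosen with earlier results of these data known, so this difference is no independent result. At 16 hours, 2.04% of the 49 were called lower than in the preterm controls. The share was 5.26% of the E2F, MYB and DREAM genes and 16.7% of the G1 genes, against 6.07% of all genes. These shares are 1 gene in each list, E2F1 of 19 and CCND1 of 6. In the first list E2F3 rose at 16 hours (5.26%), against 8.30% of all genes called higher. Of 72 further mitotic genes tested, among them condensins, securin and other kinetochore proteins, 24 fell at 5 days of LPS (33.3%, median -0.68), 19 with LPS + Beta-Ac (26.4%, -0.62) and 21 at term (29.2%, -0.71). Of all genes, 2.23%, 2.44% and 0.953% were called lower in these comparisons. The largest decreases at 5 days were those of DEPDC1 (-2.29 ± 0.434 (SE), adjusted p = 0.00284), PIMREG (-2.19 ± 0.310 (SE), adjusted p = 5.42e-04) and CKAP2 (-1.95 ± 0.281 (SE), adjusted p = 5.62e-04), a protein of the spindle. At 16 hours 1 of the 72 fell and 1 rose, each 1.39%, against 6.07% of all genes called lower and 8.30% called higher. The gene that rose was PTTG1, securin, which holds back the separation of sister chromatids. PTTG1 measured 12.9, 11.7, 16.4 and 7.57 CPM in the preterm controls, 22.8, 50.1, 28.4 and 34.3 in the 16-hour LPS animals, 15.9, 17.7 and 14.6 in the 5-day LPS animals, 19.7, 13.9 and 17.3 with LPS + Beta-Ac, and 12.4 and 8.53 at term, with a log2 fold change of 1.47 ± 0.249 (SE), adjusted p = 2.87e-04, at 16 hours. All 4 animals at 16 hours lay above the other 12. Against 5 days of LPS, 12 of the 72 were called higher at 16 hours (16.7%, median 0.44), against 8.02% of all genes. None of 15 genes of the anaphase-promoting complex and its cofactors, FZR1 and UBE2S among them, was called in any comparison with the preterm controls, with medians of -0.10, -0.03, -0.10 and -0.04 at 5 days of LPS, with LPS + Beta-Ac, at term and at 16 hours. Of all genes, 2.23%, 2.44%, 0.953% and 6.07% were called lower and 2.60%, 4.05%, 1.11% and 8.30% higher, in the same order. At such shares, no call among 15 genes does not set this list apart from all genes. UBE2S, an enzyme that extends ubiquitin chains with this complex, was called higher at 16 hours than at 5 days of LPS (1.17 ± 0.191 (SE), adjusted p = 2.33e-04).

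Few genes of DNA replication were called, although most had a lower mean than in the preterm controls. Of 35 S phase genes, 1 fell at 5 days of LPS (RRM2, a subunit of ribonucleotide reductase, -1.06 ± 0.17 (SE), adjusted p = 0.00103), none with LPS + Beta-Ac and 4 at term (RRM2, TYMS, CDC6 and UHRF1), with medians of -0.27, -0.24 and -0.49. These shares were 2.86%, 0% and 11.4%, against 2.23%, 2.44% and 0.953% of all genes called lower. The mean was lower in 30, 28 and 33 of the 35. In 15, 10 and 27 of them the groups did not overlap from below, against 15.6%, 16.1% and 15.2% of all genes. Of 19 E2F, MYB and DREAM genes, 3 fell at 5 days of LPS (E2F7, E2F8 and MYBL2), 2 with LPS + Beta-Ac and 4 at term. These were 15.8%, 10.5% and 21.1% of that list, beside the same shares of all genes. MYBL2, the MYB protein that works ahead of FOXM1, measured 13.8, 14.2, 15.7 and 11.4 CPM in the preterm controls, 6.64, 5.79, 9.58 and 6.54 at 16 hours of LPS, 5.88, 6.41 and 3.51 at 5 days of LPS, 7.04, 6.15 and 7.24 with LPS + Beta-Ac, and 3.64 and 4.43 in the term controls. All groups but the preterm controls were lower in every animal, with a log2 fold change of -1.41 ± 0.218 (SE), adjusted p = 8.22e-04, at 5 days of LPS and -1.75 ± 0.247 (SE), adjusted p = 0.00266, at term. CDKN1A, the inhibitor p21, rose at 16 hours (1.69 ± 0.232 (SE), adjusted p = 4.28e-05) and had a log2 fold change of 0.32 ± 0.251 (SE) at 5 days of LPS. It measured 24.6, 20.9, 19.9 and 24.6 CPM in the preterm controls, 50.4, 83.7, 90.9 and 72.5 in the 16-hour LPS animals, 24.1, 32.4 and 28.0 in the 5-day LPS animals, 33.0, 31.2 and 21.6 with LPS + Beta-Ac, and 35.5 and 16.2 at term. All 4 values at 16 hours exceeded all others. Of 6 cyclins and kinases of G1, CDK6 rose at 5 days of LPS (1.76 ± 0.352 (SE), adjusted p = 0.00409) and with LPS + Beta-Ac, and CCND1 fell at 16 hours (-1.20 ± 0.132 (SE), adjusted p = 4.47e-06). Each was the single call of that list in its direction (16.7%). Of all genes, 2.60% and 4.05% were called higher and 6.07% lower, in the same order.

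**Figure D5:**
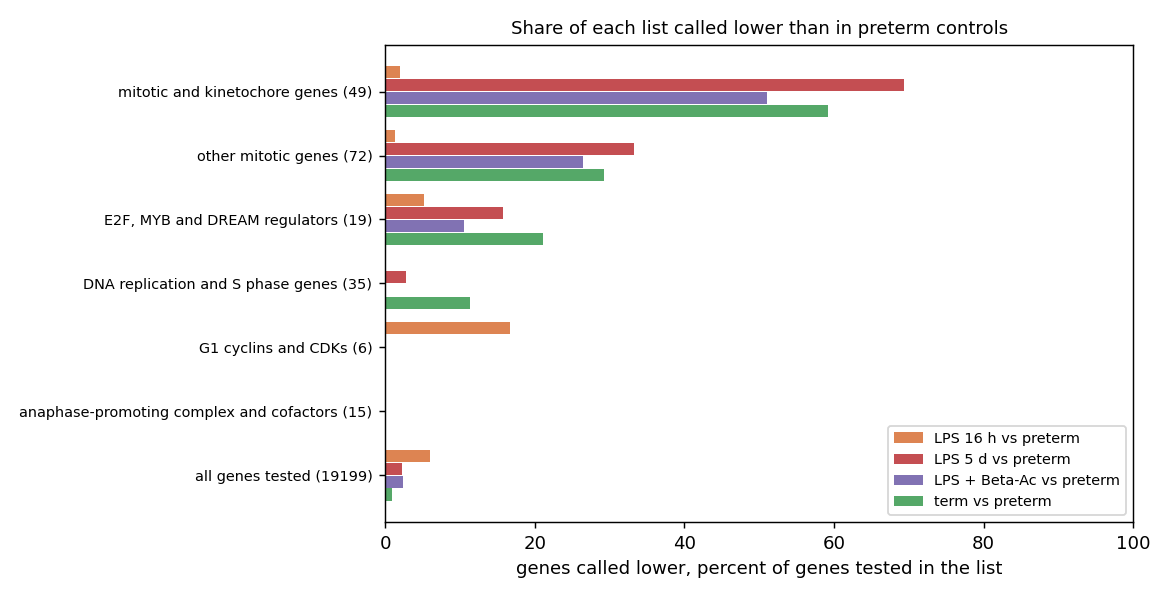
Percent of the tested genes of each list that were called lower (horizontal axis, from 0 to 100) in 4 comparisons with the preterm controls, with the number of genes tested in parentheses. The 49 genes reach 69.4% at 5 days of LPS, the 72 other mitotic genes 33.3%, the 35 S phase genes 2.86% and all genes 2.23%. The lists were chosen with earlier results of these data known.

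Markers of cell types also moved between these groups. The summed level of 9 fibroblast markers was 14657 to 23443 CPM in the preterm controls, 9004 to 15261 at 5 days of LPS, 8782 to 12002 with LPS + Beta-Ac, 9171 to 9333 at term and 10228 to 13978 at 16 hours. The sum of 14 myeloid markers was 187 to 313 CPM in the preterm controls, where 1 of them had no count, 2511 to 3160 at 16 hours, 350 to 388 at 5 days of LPS, 622 to 993 with LPS + Beta-Ac and 428 to 562 at term. The 7 erythroid markers with a row, from red cell precursors that can themselves divide, summed to 606 to 1571 CPM in the preterm controls, 517 to 1428 at 16 hours, 350 to 1072 at 5 days of LPS, 1199 to 1403 with LPS + Beta-Ac and 369 to 670 at term. All 7 had a lower mean at 5 days of LPS than in the preterm controls (median -0.92) and at term (-1.04), where the members' medians were also below 0. With LPS + Beta-Ac and at 16 hours, 6 of 7 had a higher mean than in the preterm controls (0.30 and 0.72), where the members' medians were -1.07 and -0.28. The 9 type 2 markers summed to 6682 to 11443 CPM in the preterm controls and 15414 to 30258 in the 5-day groups, and the 7 type 1 markers to 3929 to 4521 and 2529 to 4365. The 7 endothelial markers summed to 1722 to 2053 and 1158 to 1757 CPM, and the 11 lymphocyte markers to 48 to 78.2 and 78.9 to 159, in the same order. Within the 5-day groups, the lymphocyte sum was 78.9 to 102 with LPS alone and 117 to 159 with LPS + Beta-Ac. At 16 hours, type 1 markers summed to 1445 to 1710 CPM, type 2 to 9524 to 22918, endothelial to 1436 to 1536 and lymphocyte to 87.6 to 99.6. The part of any of these cells in the levels of the mitotic genes was not tested.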

How the data were processed

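Whole fetal lung of 16 rhesus macaques in 5 groups was measured by polyA-selected, paired-end RNA sequencing, 1 library per animal, so that p-values cover the spread between animals. Per the labels and the study's methods, the authors assigned the reads to Mmul_10 transcripts with kallisto and summarised them per gene, and they compared groups with DESeq2. The deposited table holds whole-number counts per gene that are not normalized. Tool versions, annotation release, rounding and strand handling: not given in the sources used here. Animal numbers alone head the count columns, so their unit was recorded as other, and limma 3.58.1 in R 4.3.3 replaced the count model planned.

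Library sizes were adjusted with the trimmed mean of M values (trims of 30% and 5%), and log2 CPM was formed with a prior count of 2. Genes needed 0.371 CPM (10 counts in the median library) in 2 animals and 15 counts in all. All 16 animals and all 19199 genes entered 1 limma fit with trend and robust options, and 1 mean per group. A gene was called at an adjusted p (Benjamini-Hochberg) under 0.05 together with a fold of 2 or more, the limits of the study. Fold changes are on the log2 scale with the prior count, which shrinks those of low genes. Counts were not split by sex or batch, which the labels do not give. The fit was tested on simulated data.

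The members, the other gene lists and the marker lists were chosen with earlier results of these data known. RBBP4 had 2 identifiers and was left out. Values per animal were to be given for TOP2A, MKI67, CDK1, CCNB1, PLK1, AURKB, BIRC5 and FOXM1, for the member of each role with the largest change at 5 days of LPS and with added Beta-Ac against LPS, and for members with a sign opposite to the median in at least 2 of 4 comparisons. MAD2L1, NUF2, PRC1, CENPA, ASPM, PTTG1, MYBL2 and CDKN1A were added after their values were seen. Alternatives were other scalings, no filter, another prior count, limma-voom, no robust option, no minimum fold, only the compared groups, and leaving out each animal. Leaving out animals 209 and 200 together was chosen after seeing the data. A planned search of promoter motifs was not run, and no sequences are shown. The result of 1 further gene list is not reported here.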

Additional observations from a re-analysis of the deposited data

Results flagged for a closer look

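Within the groups of 4 animals, 100 gaps between an extreme animal and its nearest neighbour were tested by Dixon's criterion, and 6 exceeded the 95% critical value, where chance alone gives about 1 in 20. Preterm control 113 stood above its group for PBK (2.63 log2 CPM, next 2.05) and TOP2A (5.97, next 5.33), and preterm control 209 stood below it for AURKA (1.39, next 1.98). At 16 hours of LPS, animal 035 stood below its group for CDK1 (3.21, next 3.6) and PBK (1.00, next 1.37), and animal 029 for ANLN (2.88, next 3.37).

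The time points after LPS differed in a direct limma comparison of 16 hours with 5 days. It called 25 of 49 members higher at 16 hours (51.0%), against 8.02% of all genes called higher and 6.61% called lower. Under scaling by the total count, 13 members were called, and CCNB1, FOXM1, MKI67, BIRC5, PBK and NUSAP1 were among those that lost the call. Among the genes given per animal, the log2 differences in the main fit were 2.30 for CENPE, 1.61 for SGO2, 1.55 for KIF20A, 1.45 for TOP2A, 1.4 for SPC25, 1.18 for NUSAP1, 1.17 for PBK and for MKI67, 1.16 for BIRC5, 1.15 for FOXM1 and 1.09 for CCNB1.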

How the results depend on the processing

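At 5 days of LPS and with LPS + Beta-Ac the members' median stayed below 0 under the alternatives that gave one. Of 34 and 25 called, leaving out single animals gave 28 to 36 and 20 to 27, and no minimum fold gave 40 and 35, of which 1 was higher with LPS + Beta-Ac. Scaling by the total count gave 4 called members, a median of -0.49 and a difference of the mean over the genes of -0.50 for 16 hours against the preterm controls, and 13 called with a median of 0.82 for 16 hours against 5 days of LPS. With no minimum fold, 14 were called at 16 hours, and with only the compared groups 16 were called at term. Leaving out single animals gave 13 to 32 called at term (13 without term control 200) with medians of -1.52 to -1.14, 1 to 3 at 16 hours, and 0 to 1 for LPS + Beta-Ac against term with medians of 0.20 to 0.43. Leaving out animals 209 and 200 together, chosen after seeing the data, gave a median of 0.20 for LPS + Beta-Ac against term. The cause of these shifts was not tested, beyond the fewer animals in the fits that leave some out. Of 48 called values of single named genes, 19 lost the call under some alternative and 0 reversed. No paired analysis was possible because the groups share no animal numbers. Groups of 2 to 4 animals limit precision, and CENPA rested on as few as 3 counts, in term control 200.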
